A study of Homo sapiens with 32 samples.

Results

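Sodium potassium pump and osmotic response genes were followed in the breast cancer cell line MDA-MB-468 under salinomycin (Sal), dasatinib (Das) or both drugs. Salinomycin is a polyether antibiotic that carries potassium ions across membranes, and dasatinib is an inhibitor of Src family kinases. The 8 genes were taken from a list of names out of 48804 genes in the deposited table. The rule of the list used no measured value, but it was made with earlier results of these data known. They are the pump subunits ATP1B1 and ATP1B3, the cotransporter gene SLC12A2, the transcription factor gene NFAT5, the osmolyte genes SLC5A3, SLC6A6 and AKR1B1, and the volume-regulated channel gene LRRC8A. MDA-MB-468 is an established line of triple-negative breast cancer, grown here in monolayers, and all libraries came from this 1 line. Cells received PBS (control), Sal at 0.5 μM, Das at 15 μM or both together (S + D, for which the label gives a summed concentration of 15.5 μM), each for 24 or 72 h. Each of the 8 conditions had 4 libraries, 32 in all, which the study describes as biological replicates, and the labels leave 1 of the 4 without a number. The values are numbers of reads on each gene.

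Animal cells keep sodium low and potassium high with the sodium potassium pump, which consists of a catalytic alpha subunit and a beta subunit that brings it to the surface, and a small FXYD protein often tunes it. The gradients the pump makes drive cotransporters such as NKCC1, the product of SLC12A2, which takes up sodium, potassium and chloride and lets a shrunken cell regain volume. A swollen cell loses chloride and small osmolytes through the volume-regulated anion channel, in which LRRC8A is the obligatory subunit and LRRC8B to LRRC8E are its partners. In cells kept in hypertonic medium, NFAT5 raises transcription of the myo-inositol transporter gene SLC5A3, the taurine transporter gene SLC6A6 and AKR1B1, whose product aldose reductase makes sorbitol.

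The genes lie apart from each other on GRCh37, the build to which the reads were aligned. ATP1B1 is at chr1:169074935-169280230, ATP1B3 at chr3:141594966-141645391, SLC12A2 at chr5:127419458-127525369 and NFAT5 at chr16:69598997-69738569, all on the forward strand. SLC5A3 is at chr21:35445878-35478559, SLC6A6 at chr3:14444076-14530857 and LRRC8A at chr9:131644412-131680318, also on the forward strand, and AKR1B1 is at chr7:134127108-134144036 on the reverse strand. RefSeq promoter windows (GRCh38.p14) were at hand for 6 of the 8 genes, and NFAT5 and SLC6A6 had no entry. The 250 bases before the RefSeq start are shown for SLC12A2 and ATP1B3, which both fell with S + D at both times, and for SLC5A3, whose window is the same as that of its neighbour MRPS6. For ATP1B3 this window lies inside the gene as placed above and covers 29 of its exon bases. Capitals mark matches to the GC box (GGGCGG) and the CCAAT box (CCAAT), each sought on both strands, and overlapping or adjoining matches run together.

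SLC12A2 (chr5:127419208-127419457, GRCh37, forward strand): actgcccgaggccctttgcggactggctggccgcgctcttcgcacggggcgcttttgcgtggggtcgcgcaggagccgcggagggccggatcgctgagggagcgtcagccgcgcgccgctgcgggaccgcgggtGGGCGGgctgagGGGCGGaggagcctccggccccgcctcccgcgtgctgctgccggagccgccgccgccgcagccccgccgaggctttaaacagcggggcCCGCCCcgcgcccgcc

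ATP1B3 (chr3:141595235-141595484, GRCh37, forward strand): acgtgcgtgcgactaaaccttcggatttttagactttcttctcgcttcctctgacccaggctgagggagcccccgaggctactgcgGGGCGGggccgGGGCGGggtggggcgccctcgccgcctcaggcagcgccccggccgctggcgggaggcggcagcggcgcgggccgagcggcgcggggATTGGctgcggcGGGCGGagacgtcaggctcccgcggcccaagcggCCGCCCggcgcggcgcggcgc

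SLC5A3 and MRPS6 (chr21:35445628-35445877, GRCh37, forward strand): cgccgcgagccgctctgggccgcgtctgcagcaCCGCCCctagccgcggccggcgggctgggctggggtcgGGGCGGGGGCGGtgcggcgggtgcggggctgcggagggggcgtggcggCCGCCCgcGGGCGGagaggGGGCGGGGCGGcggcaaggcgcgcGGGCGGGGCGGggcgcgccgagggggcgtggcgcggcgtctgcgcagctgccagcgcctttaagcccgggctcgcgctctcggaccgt

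The SLC12A2 window held 3 GC boxes and no CCAAT box, the ATP1B3 window 4 GC boxes and 1 CCAAT box, and the window shared by SLC5A3 and MRPS6 held 9 GC boxes. A GC box was present in 42.6% of the 35116 windows of this length in the table, and a CCAAT box in 32% of them. None of the 8 windows of the 6 genes held TGGAAA, the core of the element that NFAT5 binds, on either strand, whereas 18% of all windows did. The TATA box, TATAAA, was likewise found in none of the 8, against 10.7% of all windows. Letters found or not found in such a window say nothing about binding in these cells.

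A library held between 25692561 and 42769687 counts, and the 7 genes with counts had from 546 to 16878 counts in a library. Levels are counts-per-million values (CPM) scaled by TMM, a normalization between libraries, and changes are log2 fold changes with a standard error (SE) from edgeR's quasi-likelihood fit. A gene passed the test at an adjusted p under 0.01, over all genes fitted together. In each condition 3 libraries are numbered in the labels and 1 is not, and the 8 unnumbered libraries deviated together from their conditions: their deviations correlated with r from 0.522 to 0.666 between conditions of the same time point. Values are therefore given with and without them where it matters. All 7 epithelial markers were present (EPCAM, CDH1, KRT7, KRT8, KRT18, KRT19 and EGFR), and their summed level followed treatment: at 72 h it was 11758 to 12896 CPM in control, 7284 to 8066 with Sal, 8479 to 10904 with Das and 5474 to 6960 with S + D. PGR was at most 0.0895 CPM, ESR1 lay between 3.64 and 12.0 CPM and ERBB2 between 56.8 and 192 CPM, and the 5 immune markers summed to at most 0.232 CPM. Of 6 fibroblast markers, COL1A1 had a median of 43.5 CPM and rose with Sal at 72 h by 1.22 ± 0.21 (adjusted p = 8.1e-05), PDGFRB reached at most 2.22 CPM, and COL1A2, COL3A1, DCN and LUM were each at or below 0.149 CPM. In the same comparison the 4 keratin genes fell, KRT8 the most, by 1.73 ± 0.29 on the log2 scale (adjusted p = 5.4e-05), while EPCAM (-0.26), CDH1 (0.23) and EGFR (-0.34) did not pass. The part of these shifts in the results was not tested. In such bulk libraries, fewer cells of a kind and less RNA per cell cannot be told apart.

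Per kilobase of exon, the level in control cells at 24 h was highest for ATP1B3, at 47.5 ± 6.12 CPM per kilobase (SD, n = 4), and next for SLC12A2, at 33.7 ± 2.5. AKR1B1 followed at 24.1 ± 8.91, LRRC8A at 15.8 ± 0.498 and ATP1B1 at 13.5 ± 1.81 CPM per kilobase. SLC6A6, at 4.67 ± 1.09, and NFAT5, at 1.87 ± 0.274 CPM per kilobase, were the lowest of the 7. The ranges over libraries overlapped between SLC12A2 and AKR1B1 and between LRRC8A and ATP1B1, and with the length of the longest transcript in place of all exons the last 2 changed places (17.9 for LRRC8A and 26 for ATP1B1). ATP1B3 stood above SLC12A2, and SLC6A6 above NFAT5, in all 4 libraries. SLC5A3 had 0 counts in all 32 libraries and was not tested. By counting error alone, 0 counts allow up to 0.117 CPM of reads assigned to it in the shallowest library.

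**Figure D1:**
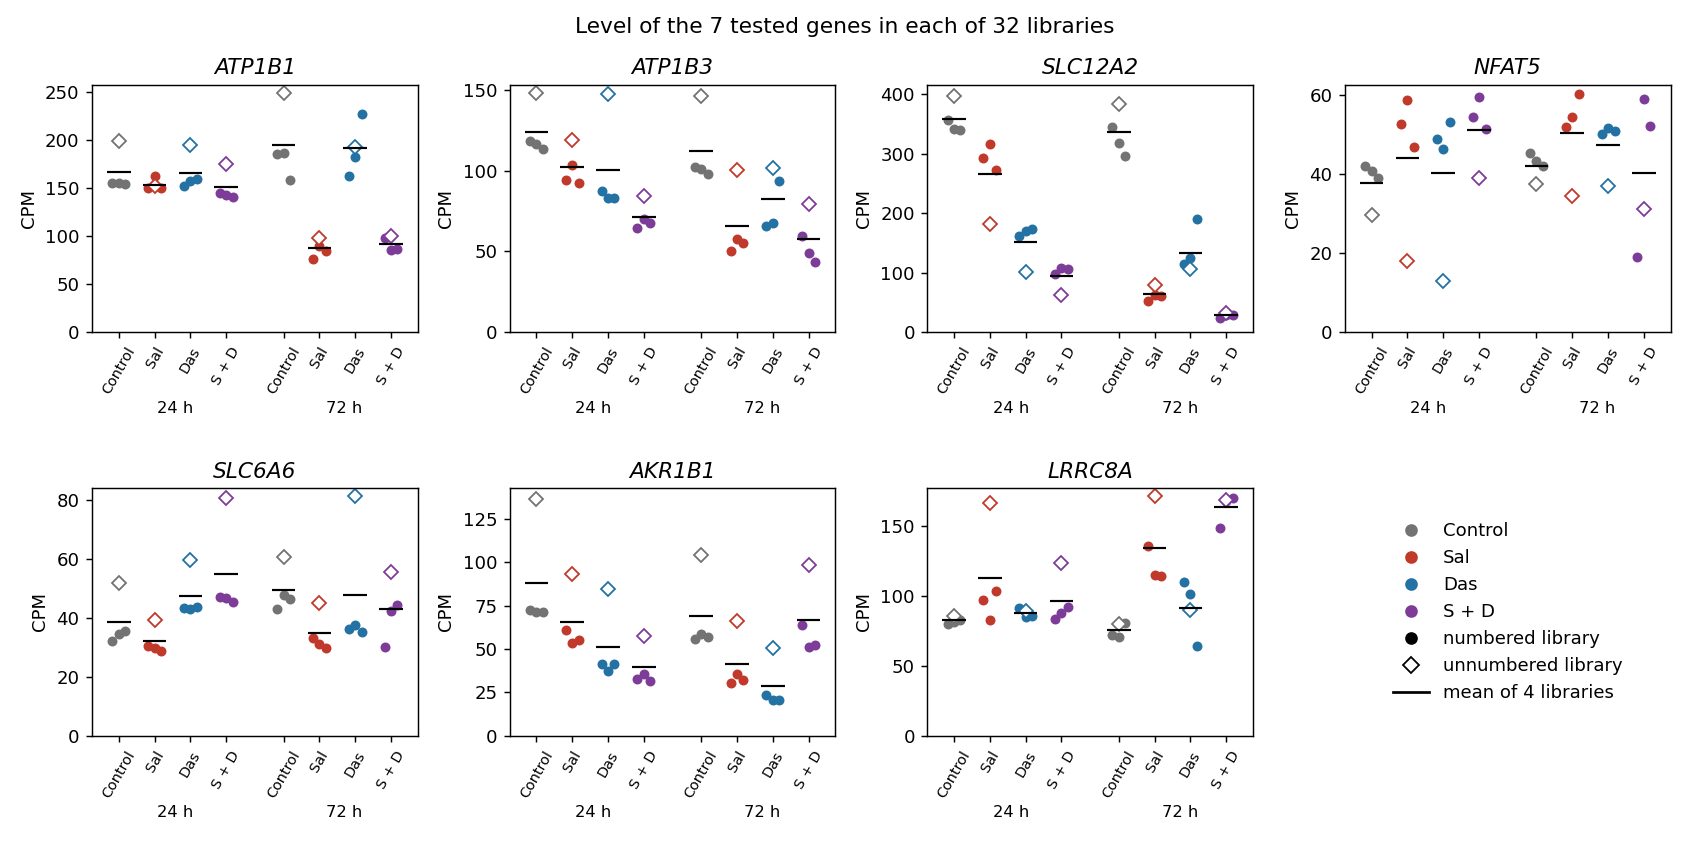
Level of the 7 tested genes in counts-per-million (CPM, linear axis from 0) in every library, by treatment and time. Filled points are the 3 numbered libraries of a condition, open diamonds the unnumbered one, and lines the mean of 4. SLC12A2 fell from 336 CPM in control to 28.0 with S + D at 72 h, ATP1B1 fell only at 72 h and only with Sal or S + D, and the open diamonds lie high for AKR1B1 and low for NFAT5.

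The largest change was that of SLC12A2, which encodes the cotransporter NKCC1. At 24 h its level was 357, 342, 339 and 397 CPM in the control libraries 1, 2, 3 and the unnumbered one, and 292, 317, 273 and 181 CPM with Sal. It was 162, 170, 174 and 102 CPM with Das and 96.7, 108, 106 and 62.8 CPM with S + D. All libraries of the 3 treatments lay below all control libraries, and those of Das below those of Sal. The log2 fold change over control at 24 h was -0.44 ± 0.20 (SE) with Sal, which did not pass (adjusted p = 0.17), -1.22 ± 0.20 with Das (adjusted p = 0.00039) and -1.90 ± 0.21 with S + D (adjusted p = 2.4e-06). By 72 h the order of the single drugs had turned. The level was 345, 318, 296 and 384 CPM in control and 52.6, 61.9, 61.3 and 79.2 CPM with Sal. With Das it was 114, 124, 190 and 105 CPM, and with S + D it was 23.8, 28.1, 28.6 and 31.6 CPM. The 4 conditions did not overlap at 72 h. The log2 fold change was -2.41 ± 0.18 with Sal (adjusted p = 1.7e-08), -1.34 ± 0.17 with Das (adjusted p = 2.8e-05) and -3.60 ± 0.19 with S + D (adjusted p = 2.5e-10), so that S + D left 8.35% of the mean control level. SLC12A2 was the only one of the 7 genes beyond an absolute log2 fold change of 1.5 in these comparisons with control, at 24 h with S + D (6.06% of all genes) and at 72 h with Sal (18.7%) and S + D (20.2%).

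SLC12A2 was lower with S + D than with Sal (-1.18 ± 0.17, adjusted p = 0.00050) and than with Das (-2.26 ± 0.18, adjusted p = 1.1e-07), and lower with Sal than with Das (-1.08 ± 0.17, adjusted p = 9.3e-05), all at 72 h. The interaction of Sal and Das, by which the response to S + D exceeds the sum of the single responses on the log2 scale, was 0.15 ± 0.24 (adjusted p = 0.69). From 24 to 72 h the response to Sal deepened by -1.96 ± 0.27 (adjusted p = 3.9e-06) and that to S + D by -1.64 ± 0.27 (adjusted p = 6.0e-05). The change of the Das response between the times was -0.09 ± 0.27 (adjusted p = 0.93). Every one of these SLC12A2 calls held without any 1 library, by DESeq2 and with the numbered libraries only. With the numbered libraries only, the smaller decrease with Sal at 24 h passed too (-0.22, adjusted p = 0.0049).

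Among the pump subunits, ATP1B1 fell late and with Sal. At 24 h it was between 141 and 200 CPM in all 16 libraries, and it passed in none of the comparisons with control. At 72 h its level was 186, 187, 158 and 249 CPM in control and 163, 183, 227 and 193 CPM with Das. It was 76.6, 90.1, 85.0 and 98.4 CPM with Sal and 98, 85.3, 86.1 and 99.7 CPM with S + D. Control and Das overlapped, Sal and S + D overlapped with each other, and the 2 pairs of conditions were apart. The log2 fold change at 72 h was -1.17 ± 0.14 with Sal (adjusted p = 1.4e-06), -0.03 ± 0.14 with Das (adjusted p = 0.88) and -1.10 ± 0.14 with S + D (adjusted p = 2.5e-06). ATP1B1 was lower with Sal than with Das by -1.14 ± 0.14 (adjusted p = 7.7e-06), and the difference between S + D and Sal was 0.08 ± 0.14 (adjusted p = 0.80). The response at 72 h was below that at 24 h by -1.04 ± 0.17 with Sal (adjusted p = 4.2e-05) and by -0.94 ± 0.17 with S + D (adjusted p = 0.00022). NME7, which lies on the opposite strand and shares 2.34% of the exon bases of ATP1B1, rose with Sal at 72 h by 1.53 ± 0.17 (adjusted p = 8.4e-07) from 14.5 to 42.2 CPM, and the strand used in counting is not given in the sources used here.

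ATP1B3, the other beta subunit gene of these cells, fell less and earlier with the combination. At 24 h its level was 118, 117, 114 and 148 CPM in control and 64.4, 70.0, 67.5 and 84.2 CPM with S + D. At 72 h it was 102, 101, 98.1 and 147 CPM in control, 50.6, 57.7, 55.4 and 100 CPM with Sal, and 59.3, 49.2, 43.6 and 79.6 CPM with S + D. S + D lay below control in every library at both times, while the unnumbered Sal library at 72 h reached the control range. With S + D it changed by -0.76 ± 0.17 at 24 h (adjusted p = 0.0014) and -0.97 ± 0.23 at 72 h (adjusted p = 0.0013), and with Sal at 72 h it was -0.78 ± 0.23 (adjusted p = 0.0066). That last call was lost when any 1 of 5 libraries was left out, namely control 2, the unnumbered control or Sal 1, 2 or 3 (adjusted p from 0.00032 to 0.028 over the 8), and with the numbered libraries only the change was -0.90 (adjusted p = 7.3e-05). With Das, ATP1B3 did not pass at either time (-0.29 ± 0.17 at 24 h, adjusted p = 0.24, and -0.45 ± 0.23 at 72 h, adjusted p = 0.14), but with the numbered libraries only the change at 24 h was -0.42 (adjusted p = 2.5e-06).

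**Figure D2:**
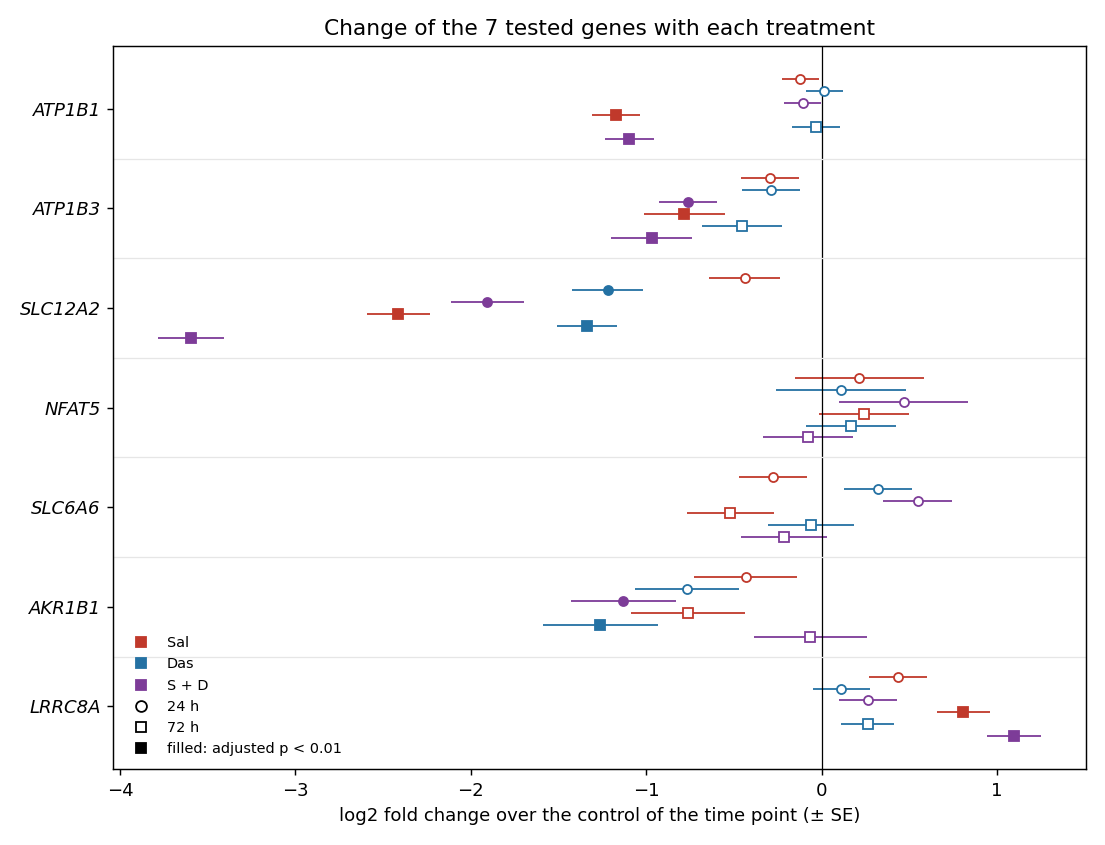
Log2 fold change over the control of the same time point for the 7 tested genes, with SE as bars. Circles are 24 h, squares 72 h, colours the treatments, and filled symbols passed at an adjusted p under 0.01. SLC12A2 reaches -3.60 with S + D at 72 h, LRRC8A is the only gene with filled symbols to the right of 0, and all 6 symbols of NFAT5 are open.

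NFAT5, which encodes the transcription factor of the hypertonic response, passed in none of the 14 comparisons, control over time and interaction included. At 24 h its level was 41.9, 40.8, 38.9 and 29.7 CPM in control and 52.6, 58.7, 46.7 and 18 CPM with Sal. At 72 h it was 45.3, 43.4, 42.0 and 37.5 CPM in control, 51.9, 54.5, 60.2 and 34.4 CPM with Sal, and 18.9, 58.8, 52.0 and 31.2 CPM with S + D. The numbered Sal libraries were above control at both times and the unnumbered ones below. The log2 fold change was 0.21 ± 0.37 with Sal at 24 h (adjusted p = 0.77), 0.24 ± 0.26 with Sal at 72 h (adjusted p = 0.43) and 0.47 ± 0.37 with S + D at 24 h (adjusted p = 0.32). With the numbered libraries only, NFAT5 was higher at 24 h with Sal (0.39, adjusted p = 0.00075), Das (0.32, adjusted p = 0.0024) and S + D (0.46, adjusted p = 4.4e-05).

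The NFAT5 level correlated with a measure computed over the whole library. A long-transcript index was computed as the mean log2 CPM of 634 protein-coding genes with a transcript of at least 10000 bases minus that of 2164 genes whose longest transcript was at most 2000 bases, without the 8 genes described here. It ranged from 0.551 to 1.63 over the libraries and was lowest in the unnumbered Das library at 24 h, in S + D library 1 at 72 h and in the unnumbered Sal library at 24 h. NFAT5, whose longest transcript has 14219 bases, correlated with the index at r = 0.967 over the 32 libraries, and at r = 0.985 after the mean of each condition was taken off. For the other 6 genes the second correlation ran from -0.764 (AKR1B1) to 0.648 (SLC12A2). These correlations are descriptions over libraries that share conditions. With the index as a term in the fit, the NFAT5 change at 24 h was 0.09 with Sal (adjusted p = 0.39) and 0.15 with S + D (adjusted p = 0.10). The index itself differed by treatment in the numbered libraries at 24 h. It was 1.36, 1.32 and 1.31 in control, 1.46, 1.58 and 1.40 with Sal, and 1.53, 1.58 and 1.53 with S + D. The unnumbered libraries were at 1.06, 0.611 and 1.12 in that order. The term thus shares variation with treatment, and how the NFAT5 change divides between them was not tested.

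**Figure D3:**
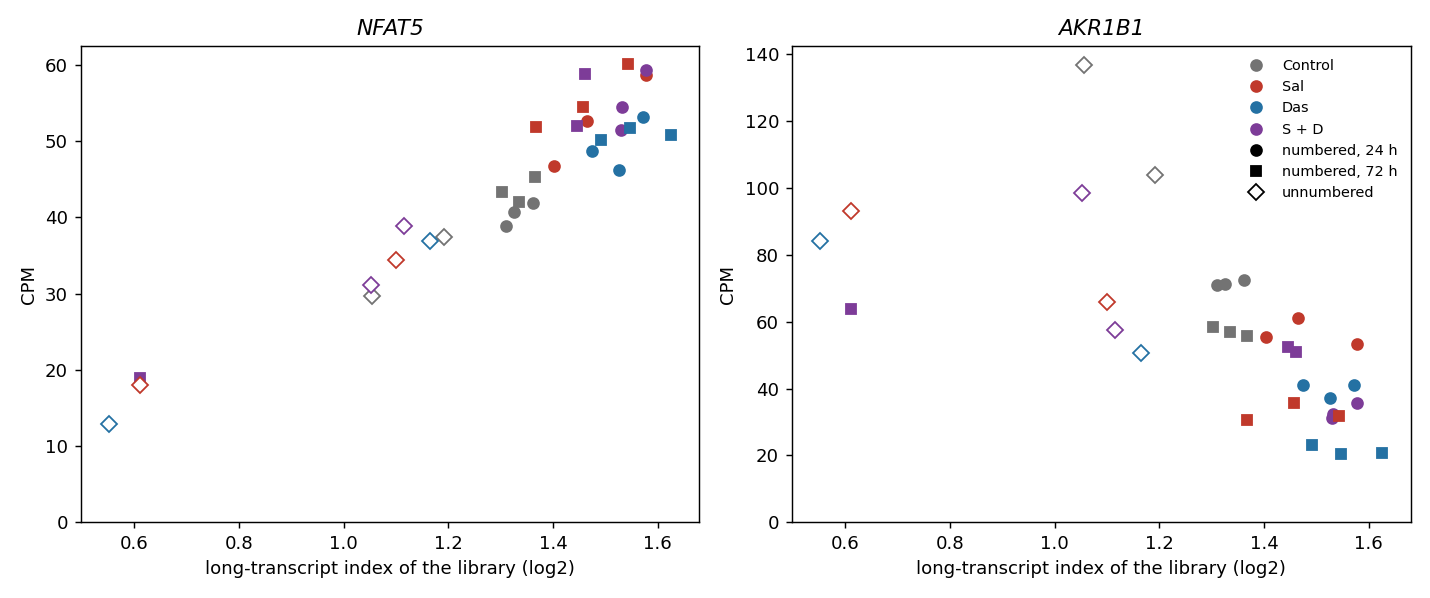
Level of NFAT5 and AKR1B1 (CPM, linear axis from 0) against the long-transcript index of each library (a log2 difference). Colours are treatments, filled circles and squares the numbered libraries at 24 and 72 h, and open diamonds the unnumbered libraries. NFAT5 rises with the index from 12.9 to 60.2 CPM, and the 3 libraries near an index of 0.6 include 1 numbered S + D library at 72 h.

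Of the 3 genes of osmolyte uptake and synthesis, SLC5A3 was at 0 throughout. Its annotated start region and 2.29% of its exon bases are shared with MRPS6, a gene for a protein of the mitochondrial ribosome, and reads of both could fall on one locus. MRPS6 was at 63.0 ± 5.25 CPM in control at 72 h and at 30.9 ± 2.68 CPM with Sal (SD, n = 4), and it changed by -1.04 ± 0.16 (adjusted p = 1.8e-05). How the authors' counting divided such reads is not given in the sources used here, so that the 0 is a value of the table and no measure of SLC5A3 transcription.

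SLC6A6, the taurine transporter gene, passed in none of the 14 comparisons. At 72 h its level was 43, 47.8, 46.3 and 60.8 CPM in control and 33.3, 31.3, 29.8 and 45.1 CPM with Sal. At 24 h it was 32.2, 34.6, 35.5 and 51.9 CPM in control and 47.2, 46.7, 45.4 and 81.0 CPM with S + D. In each set of 4 values the unnumbered library was the highest, and the 3 numbered ones were apart from the numbered controls in both comparisons. The log2 fold change was -0.52 ± 0.25 with Sal at 72 h (adjusted p = 0.074) and 0.55 ± 0.20 with S + D at 24 h (adjusted p = 0.031). With the numbered libraries only, SLC6A6 was lower with Sal at 72 h (-0.56, adjusted p = 0.0018) and higher at 24 h with Das (0.38, adjusted p = 1.8e-05) and S + D (0.46, adjusted p = 8.5e-07).

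AKR1B1, the aldose reductase gene, was the one of the 7 genes whose interaction of Sal and Das passed the test. At 24 h the level was 72.4, 71.3, 71.1 and 137 CPM in control, 41.0, 37.1, 41.0 and 84.3 CPM with Das, and 32.5, 35.8, 31.2 and 57.6 CPM with S + D. At 72 h it was 55.7, 58.3, 56.9 and 104 CPM in control and 30.5, 35.8, 31.8 and 65.9 CPM with Sal. With Das it was 23.2, 20.4, 20.7 and 50.6 CPM, and with S + D it was 64.0, 50.9, 52.5 and 98.6 CPM. In each condition the unnumbered library was the highest. At 72 h the numbered libraries with Das lay below those with Sal, and both lay below control and S + D, which overlapped. Over all 4 libraries, AKR1B1 fell with S + D at 24 h (-1.13 ± 0.30, adjusted p = 0.0055) and with Das at 72 h (-1.26 ± 0.33, adjusted p = 0.0070). With Sal at 72 h it was -0.76 ± 0.32 (adjusted p = 0.048), with S + D at 72 h -0.06 ± 0.32 (adjusted p = 0.87) and with Das at 24 h -0.77 ± 0.30 (adjusted p = 0.072). In the numbered libraries alone it was lower with Sal at 72 h (-0.82, adjusted p = 1.9e-05) and with Das at 24 h (-0.82, adjusted p = 9.5e-09), and also with Sal at 24 h (-0.33, adjusted p = 0.000685).

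At 72 h AKR1B1 was higher with S + D than with Das by 1.2 ± 0.33 (adjusted p = 0.0064), and the interaction of Sal and Das was 1.96 ± 0.46 (adjusted p = 0.0079), positive because S + D lay above the sum of the single responses. Of the 7 tested genes, this 1 passed for the interaction, against 7.52% of all 16682 genes. The AKR1B1 calls were close to the threshold. With Das at 72 h the call was lost without control 2, control 3, the unnumbered control or Das 1, 2 or 3 (from -1.67 to -0.99 over the 8 libraries left out, adjusted p up to 0.029), and the interaction lost it in 12 of 16 (from 1.69 to 2.39, adjusted p up to 0.020). The difference between S + D and Das lost it without Das 1, 2 or 3, S + D 1 or the unnumbered S + D library (0.97 to 1.65, adjusted p up to 0.022), and S + D at 24 h without S + D 1, 2 or 3 or the unnumbered control (-1.37 to -0.85, adjusted p up to 0.023). With the numbered libraries only, the values were -1.42 with Das at 72 h (adjusted p = 1.1e-06), 1.36 for S + D over Das (adjusted p = 1.4e-06) and 2.2 for the interaction (adjusted p = 1.7e-06). With the long-transcript index as a term the interaction was 1.51 (adjusted p = 0.014). The call for S + D over Das was also lost with that term, with only the groups compared and without the 3 libraries of lowest index. Over the alternative fits this difference ran from 0.82 to 1.36 (adjusted p up to 0.021). AKR1B1 reads from its annotated processed copies were few (each of its 8 copies had at most 6 counts over the 32 libraries, against 62924 of AKR1B1).

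LRRC8A, the obligatory subunit of the volume-regulated anion channel, rose. At 72 h its level was 72.0, 70.8, 80.5 and 79.7 CPM in control and 136, 115, 114 and 172 CPM with Sal. It was 110, 101, 64.2 and 89.9 CPM with Das and 149, 168, 170 and 169 CPM with S + D. All libraries with Sal or S + D were above all control and Das libraries, while Das overlapped control. The log2 fold change was 0.81 ± 0.15 with Sal (adjusted p = 0.00018), 0.26 ± 0.15 with Das (adjusted p = 0.20) and 1.10 ± 0.15 with S + D (adjusted p = 7.8e-06). S + D was above Das by 0.84 ± 0.15 (adjusted p = 0.00030) and Sal above Das by 0.55 ± 0.15 (adjusted p = 0.0074). The latter call was lost with the numbered libraries only (0.39, adjusted p = 0.056), with only the groups compared (0.55, adjusted p = 0.035) and without Sal 1, the unnumbered Sal library, Das 3 or the unnumbered Das library (0.41 to 0.66 over the 8, adjusted p up to 0.030). At 24 h no comparison passed (0.43 ± 0.16 with Sal, adjusted p = 0.093), the unnumbered Sal library standing at 167 CPM above the other 3 at 82.5 to 104 CPM. The change with Sal at 24 h passed with a term for the unnumbered libraries (0.40, adjusted p = 0.0075) and with the index term (0.40, adjusted p = 0.0085), but not with the numbered libraries only (0.23, adjusted p = 0.014). The response to S + D was larger at 72 than at 24 h by 0.88 ± 0.24 (adjusted p = 0.0058), a call that was lost in 10 of 16 fits without 1 library (0.81 to 1.01, adjusted p up to 0.016). KYAT1, on the opposite strand over the start of LRRC8A without shared exon bases, also rose with Sal at 72 h (1.14 ± 0.23, adjusted p = 0.00032).

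The 4 partner subunits moved the other way. With Sal at 72 h, LRRC8B, LRRC8C, LRRC8D and LRRC8E all fell, 4 of 4, where 26.8% of all genes tested were lower, with a median of -0.83 against 0.00 over all genes. LRRC8C fell from 15.6 ± 1.44 to 3.76 ± 0.761 CPM (SD, n = 4) and changed by -2.07 ± 0.22 (adjusted p = 3.8e-07). LRRC8E fell from 29.4 ± 0.940 to 15.1 ± 3.00 CPM (-0.98 ± 0.13, adjusted p = 5.3e-06) and LRRC8B from 125 ± 8.34 to 78.5 ± 5.76 CPM (-0.69 ± 0.14, adjusted p = 0.00026). LRRC8D, at 145 ± 10.7 CPM the highest partner in control, changed least (-0.43 ± 0.11, adjusted p = 0.0027). With S + D at 72 h 3 of the 4 fell, where 27.9% of all genes were lower, with LRRC8C at -2.61 ± 0.22 (adjusted p = 4.1e-08), and with Das at 72 h LRRC8C (-0.82 ± 0.21, adjusted p = 0.0059) and LRRC8E (-0.70 ± 0.13, adjusted p = 0.00066) fell.

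**Figure D4:**
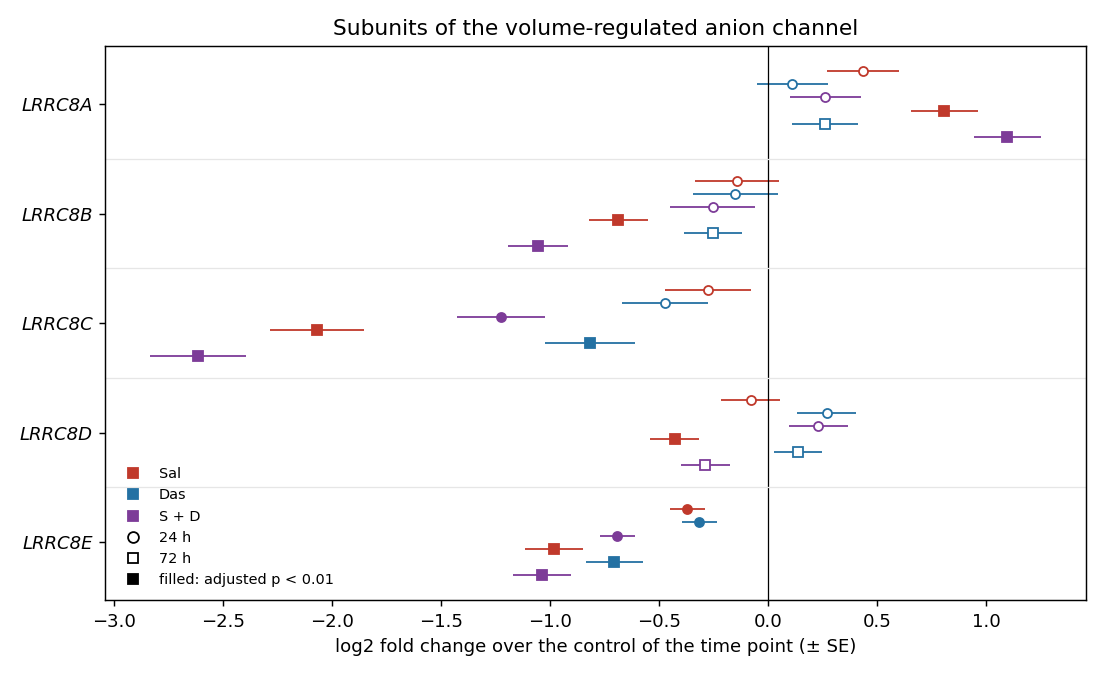
Log2 fold change over the control of the same time point for the 5 LRRC8 genes, with SE as bars. Circles are 24 h, squares 72 h, colours the treatments, and filled symbols passed at an adjusted p under 0.01. LRRC8A lies to the right of 0 in all 6 comparisons, and the filled symbols of the other 4 genes are all to the left, down to -2.61 for LRRC8C.

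The calls over the 7 tested genes were counted in each comparison with control. At 24 h, 0 of 7 passed with Sal by edgeR, against 6.78% of 16357 genes tested (2 of 7 had an unadjusted p under 0.05, and DESeq2 also called 0), 1 of 7 passed with Das (SLC12A2, against 13.9% of all genes) and 3 of 7 with S + D (SLC12A2, ATP1B3 and AKR1B1, against 33.6%). At 72 h, 4 of 7 passed with Sal (against 53.2% of all 16682 genes), 2 of 7 with Das (SLC12A2 and AKR1B1, against 19.9%) and 4 of 7 with S + D (the same 4 genes as with Sal, against 54.9%). With Sal at 72 h 3 were lower (26.8% of all genes) and LRRC8A higher (26.3%), and with S + D 3 were lower (27.9%) and LRRC8A higher (27%). These shares are not far from those of all genes, and the counts are not read as particular to the 7 genes. The 3 treatments share their control libraries at each time.

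Between treatments at 72 h, 1 of 7 differed between S + D and Sal (SLC12A2, against 3.01% of all genes), 4 of 7 between S + D and Das (against 32.1%) and 3 of 7 between Sal and Das (ATP1B1, SLC12A2 and LRRC8A, against 32.2%). Between the times, the response differed for 2 of 7 with Sal (against 21.9% of 17227 genes) and for 3 of 7 with S + D (against 16.3%). With Das it differed for 0 of 7 (against 0.226%), and control cells at 72 and 24 h differed for 0 of 7 (against 2.76%). In both of these, 0 genes had an unadjusted p under 0.05 and DESeq2 called 0. With the numbered libraries only, 4 of 7 passed with Sal at 24 h (ATP1B3, SLC12A2, NFAT5 and AKR1B1, against 23.5% of all genes), 5 of 7 with Das at 24 h (against 39.3%) and 5 of 7 with S + D at 24 h (against 58.1%). At 72 h they gave 6 of 7 with Sal (against 57.3%), 2 of 7 with Das (against 22.6%) and 4 of 7 with S + D (against 57.8%). Between treatments they gave 2 of 7 for S + D over Sal (against 4.31%), 5 of 7 for S + D over Das (against 36.6%), 3 of 7 for Sal over Das (against 35.1%) and 1 of 7 for the interaction (against 12.9%). Between the times they gave 4 of 7 with Sal (against 39.3%), 2 of 7 with Das (against 3.56%), 5 of 7 with S + D (against 31.5%) and 1 of 7 in control (against 11%). On the log2 scale the median change over the 7 genes was -0.76 with Sal at 72 h, where all genes had 0.00, and -0.21 with S + D, where all genes had 0.01.

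Around these genes, 71 others of ion transport and osmolyte handling were examined in 6 lists. With Sal at 72 h, 52 of them were tested, 12 were higher and 23 lower, against 26.3% higher and 26.8% lower of all genes, with a median of -0.41. With Das at 72 h 3 were higher and 11 lower (median -0.06), against 19.9% of all genes called in either direction. With S + D 12 were higher and 18 lower (median -0.28), against 27% higher and 27.9% lower of all genes. Of 17 other pump subunits and regulators, 7 were tested at 72 h, and with Sal 4 fell and 2 rose (median -1.01), against the same 26.8% and 26.3% of all genes. FXYD3, a small regulator of the pump, fell with Sal from 430 ± 67.0 to 143 ± 49.1 CPM (SD, n = 4), and it changed by -1.61 ± 0.24 (adjusted p = 1.5e-05). FXYD6, another small regulator, fell from 8.09 ± 2.27 to 0.112 ± 0.115 CPM, with 1 to 11 counts per library with Sal (-6.01 ± 0.48, adjusted p = 3.4e-08), and with Das it was at 2.96 ± 1.54 CPM (-1.45 ± 0.34, adjusted p = 0.0037).

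Among 12 other cation chloride cotransporters and their kinases, 10 were tested, and with Sal at 72 h 3 rose and 2 fell (median 0.17). Of all genes 26.3% were higher and 26.8% lower in this comparison. The kinase genes WNK4 and WNK2 moved apart: WNK4 rose from 2.63 ± 0.578 to 9.69 ± 3.96 CPM (1.86 ± 0.40, adjusted p = 0.00059), and WNK2 fell from 139 ± 22.2 to 57.0 ± 12.6 CPM (-1.31 ± 0.20, adjusted p = 1.8e-05). SLC12A7, a potassium chloride cotransporter gene, fell with Sal (-0.80 ± 0.24, adjusted p = 0.0085). With Das at 72 h WNK2 (-0.80 ± 0.20, adjusted p = 0.0049) and STK39, whose kinase SPAK activates NKCC1 (-0.56 ± 0.14, adjusted p = 0.0050), were lower. Of 11 osmolyte and hypertonicity genes, 9 were tested, and with Sal 3 fell and 1 rose (median -0.46), against the same shares of all genes. SORD, whose product oxidizes sorbitol, fell from 23.0 ± 2.84 to 4.16 ± 0.408 CPM (-2.48 ± 0.19, adjusted p = 2.6e-08). The kinase gene SGK1 fell with Sal from 6.82 ± 1.10 to 1.23 ± 0.502 CPM (-2.47 ± 0.31, adjusted p = 2.6e-06) and also with Das (-1.93 ± 0.30, adjusted p = 0.00015). IMPA1, for an enzyme that releases myo-inositol, rose by 0.88 ± 0.15 with Sal (adjusted p = 7.1e-05). HSPA1A and HSPA1B of this list are near-identical copies whose reads cannot be divided with certainty.

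Of 16 sodium exchangers and epithelial sodium channel genes, 12 were tested at 72 h, and with Sal 5 fell and 2 rose (median -0.35). Of all genes 26.8% were lower and 26.3% higher in this comparison. SCNN1B, the beta subunit of the epithelial sodium channel, fell with Sal (-2.61 ± 0.28, adjusted p = 5.8e-07). So did the mitochondrial exchanger gene SLC8B1 (-1.66 ± 0.25, adjusted p = 2.0e-05) and the proton exchanger gene SLC9A2 (-1.62 ± 0.45, adjusted p = 0.0042). SLC9A2 was higher with Das (1.41 ± 0.39, adjusted p = 0.0098) at a level of 3.01 ± 1.46 CPM, and SLC9A8 was lower with Das (-0.99 ± 0.16, adjusted p = 0.00018). Of 11 potassium channel genes, 10 were tested, and with Sal 4 rose and 5 fell (median 0.05), against the same shares of all genes. KCNH2 rose from 2 to 5 counts per control library to 84 to 114 (4.69 ± 0.39, adjusted p = 4.5e-08), and the size of the fitted change rests on these few control counts. The 2-pore channel gene KCNK2 fell from 54.0 ± 11 to 3.48 ± 0.199 CPM with Sal (-3.97 ± 0.24, adjusted p = 2.2e-09) and to 13 ± 4.80 CPM with Das (-2.06 ± 0.22, adjusted p = 3.3e-06). KCNN4, the calcium-activated channel gene, fell with Sal from 170 ± 28.1 to 32 ± 15.0 CPM (-2.43 ± 0.27, adjusted p = 6.6e-07). With Das, KCNK5 fell (-1.31 ± 0.22, adjusted p = 0.00028) and KCNK6 rose (1.23 ± 0.26, adjusted p = 0.0015).

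**Figure D5:**
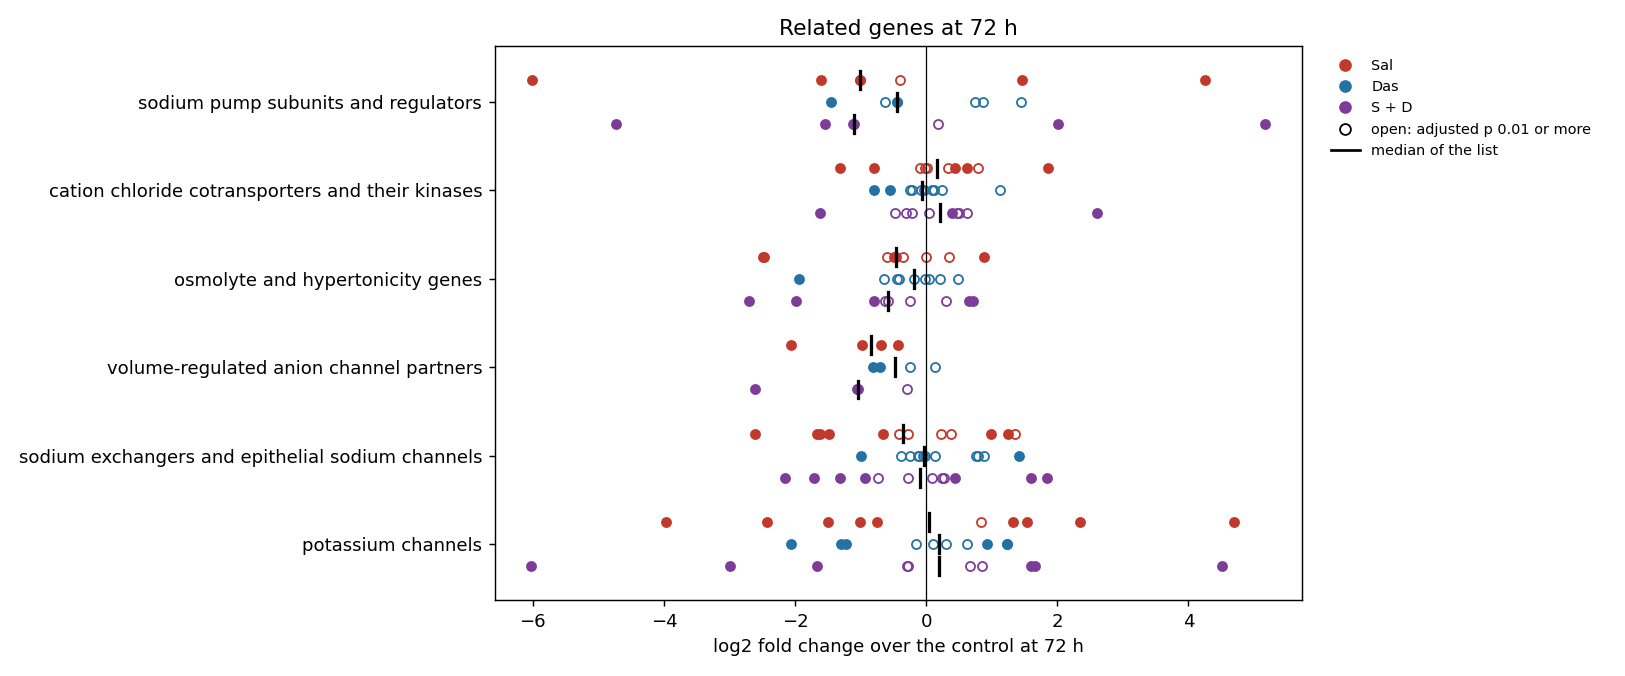
Log2 fold change at 72 h over control for the tested genes of the 6 related lists, 1 point per gene, with colours for treatments, open points for an adjusted p of 0.01 or more and black lines for list medians. The Sal medians lie at -1.01 for pump subunits and -0.83 for the LRRC8 partners and at 0.05 for potassium channels, whose single genes run from -3.97 to 4.69 with Sal.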

How the data were processed

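RNA of MDA-MB-468 cells was sequenced from TruSeq libraries as single reads on a HiSeq4000. Per the labels, the authors used bcl2fastq 2.19, STAR 2.5.2, Cufflinks 2.1.1 and DESeq2 with GRCh37, and the deposited values are raw counts per Ensembl gene. The counting program, its annotation and its use of strand are not given in the sources used here, so that reads of overlapping genes may be divided in ways that cannot be told. Symbols and positions came from GENCODE annotation on GRCh37, which matched 46537 of 48804 identifiers.

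Genes were kept by filterByExpr (minimum count 10), scaled by TMM and tested by edgeR 4.0.16's quasi-likelihood fit in R 4.3.3 with Benjamini-Hochberg adjustment over all genes. Each time point had its own fit of 16 libraries, and comparisons over time used all 32. SE is the absolute log2 fold change divided by the square root of F. The calls use an adjusted p under 0.01, and 1.5 as the second limit on the log2 scale. The scripts were tested on simulated data. The genes and lists were chosen with earlier results of these data known. Related genes named in the text are, per list, up to 3 with the largest changes past the threshold at 72 h with Sal and up to 3 with Das, at 1 CPM or more in a group. Values of LRRC8D and of the overlapping neighbours were added after they were seen, and some genes that the rule names are not reported here. Columns whose names end in 0 were matched to the unnumbered library of the condition that their letter names. This match was inferred, whereas for the numbered libraries the column name equals the description in the labels. Nothing says that same-numbered libraries belong together: their deviations correlated at a median r of 0.000669 at 24 h and 0.000796 at 72 h, so the fit had no block by number. The unnumbered libraries did deviate together (r from 0.522 to 0.666), and the main fit had no term for them. With such a term, 3 of 7 genes passed with Sal at 24 h in place of 0, and 6 of 7 at 72 h in place of 4. The shares of all genes in that fit are not reported here. No 2 libraries of a condition agreed within counting noise (chi-square per gene at least 1.89). The p-values measure the spread between these libraries. Alternatives were a replicate block, a term for the unnumbered libraries, the numbered libraries only, a long-transcript index term, leaving out the 3 libraries of lowest index, DESeq2 1.42.0, RLE scaling, no count filter, only the groups compared, all 32 libraries together, and each library left out in turn.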

Additional observations from a re-analysis of the deposited data

Results flagged for a closer look

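In 56 sets of 4 libraries (7 genes in 8 conditions), 19 had 1 library apart from the others by Dixon's criterion, which chance meets in about 1 of 20 sets, and in 18 of the 19 it was the unnumbered library. For ATP1B1 the unnumbered library was high in control at 24 h (199.8 CPM), with Das at 24 h (195 CPM) and with S + D at 24 h (175 CPM). For ATP1B3 it was high in control at 24 h (148.1 CPM) and 72 h (147 CPM), with Das at 24 h (147.5 CPM) and with Sal at 72 h (100.3 CPM). For SLC12A2 it was low with Das at 24 h (102 CPM), and for NFAT5 it was low with Das at 72 h (37.0 CPM). For SLC6A6 it was high in control at 24 h (51.9 CPM), with Das at 24 h (59.7 CPM) and 72 h (81.4 CPM) and with S + D at 24 h (81.0 CPM). For AKR1B1 it was high in control at 24 h (137 CPM) and 72 h (104.0 CPM), with Sal at 72 h (65.9 CPM) and with Das at 24 h (84.3 CPM) and 72 h (50.6 CPM). The 1 numbered library of this kind was S + D 1 at 72 h for LRRC8A, at 149 CPM. These libraries had lower long-transcript indices than most, and the part of that in the values was not tested beyond the alternative fits.

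The response differed between 24 and 72 h, by a test of the difference itself in edgeR, for ATP1B1 with Sal (-1.04) and S + D (-0.94), for SLC12A2 with Sal (-1.96) and S + D (-1.64), and for LRRC8A with S + D (0.88).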

How the results depend on the processing

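Every called change kept its direction in each alternative run, and DESeq2 and the choices of scaling and count filter moved no count of called genes by over 1.5 times. Beyond leaving out single libraries, 811 changes of single genes kept side and direction, 62 passed newly, 8 no longer passed and 29 changed sign, none of the last being called. The unnumbered libraries mattered most, and the cause was not tested.

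The pairing check gave no sign that replicate numbers pair the libraries. With the replicate block, in which the unnumbered libraries form their own block, the counts of called genes were 1 with Sal at 24 h, 4 with Das at 24 h, 2 for S + D over Sal, 5 for S + D over time and 1 for control over time. A term for the unnumbered libraries gave 3, 4, 2, 5 and 1 in the same order. The numbered libraries only gave 4, 5, 2, 5 and 1, as well as 5 with S + D at 24 h, 4 with Sal over time and 2 with Das over time. The index term gave 2 with Sal and 3 with Das at 24 h and 0 for the interaction, leaving out the 3 libraries of lowest index gave 3 with Das at 24 h and 0 for the interaction, and only the groups compared gave 1 with Das at 72 h. Leaving out 1 library gave 1 to 3 with Das at 24 h (3 without the unnumbered Das library), 1 to 2 with Das at 72 h and 0 to 1 for the interaction.

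Changes that turned sign were small. With the numbered libraries only they were 0.00419 for ATP1B1 with Sal at 24 h, 0.10 for ATP1B1 with Das at 72 h, 0.0845 for SLC6A6 in S + D over Das, -0.00567 for the ATP1B1 interaction, and over time -0.0463 for NFAT5 with Sal and, with Das, 0.0819 for ATP1B1, 0.0313 for ATP1B3 and -0.0797 for NFAT5. With the index term they were -0.10 (24 h) and -0.11 (72 h) for NFAT5 with Das, 0.0149 for ATP1B1 and 0.00664 for SLC6A6 with Das at 72 h, 0.0608 for NFAT5 with S + D at 72 h and 0.17 in S + D over Das, interactions of -0.0637 for ATP1B3, 0.0788 for NFAT5 and -0.0243 for LRRC8A, and over time with Das 0.0229 for ATP1B1, 0.00189 for ATP1B3 and -1.57e-05 for NFAT5. Without the 3 libraries of lowest index they were -0.0602 for ATP1B1 with Das at 24 h, 0.16 for NFAT5 with S + D at 72 h, -0.24 for NFAT5 with Sal over time, and with Das over time 0.0600 for ATP1B1, 0.10 for ATP1B3 and -0.22 for NFAT5. NFAT5 with Das at 24 h was -0.0318 with the block and -0.0328 with the unnumbered term, and ATP1B1 there was -0.00405 over all 32 libraries.

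Leaving out 1 library, the ranges across 0 were -0.0602 to 0.12 for ATP1B1 and -0.0557 to 0.42 for NFAT5 with Das at 24 h, -0.12 to 0.11 for ATP1B1 and -0.43 to 0.0767 for SLC6A6 with Das at 72 h, and -0.32 to 0.16 for NFAT5 and -0.27 to 0.20 for AKR1B1 with S + D at 72 h. They were -0.36 to 0.0863 for ATP1B3 in S + D over Sal, -0.28 to 0.26 for SLC6A6 in S + D over Das and -0.0251 to 0.22 for NFAT5 in Sal over Das. The interactions ran from -0.0296 to 0.20 for ATP1B1 and from -0.11 to 0.17 for LRRC8A. Over time, NFAT5 with Sal ran from -0.22 to 0.19, and with Das ATP1B1 ran from -0.13 to 0.11, ATP1B3 from -0.30 to 0.0661 and NFAT5 from -0.26 to 0.25.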

Other observations

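For each tested gene, the genes with the most similar levels were sought by Pearson's r of log2 CPM over the 32 libraries among 17227 genes. These are descriptions over libraries that share treatments. SLC12A2 was most like ACKR2 (r = 0.979), a scavenger receptor of chemokines, and PIK3R3 (r = 0.978), a regulatory subunit of PI3 kinase. ATP1B1 was most like AKR1C1 (r = 0.961), a ketosteroid reductase, and SAT1 (r = 0.954), which acetylates polyamines. ATP1B3 was most like DUT (r = 0.965), which removes dUTP, and BIK (r = 0.962), a promoter of apoptosis. LRRC8A was most like PRPF19 and SCAMP3 (both r = 0.958), of splicing and of membrane traffic. NFAT5 was most like TAOK1 (r = 0.975) and CHD6 (r = 0.954). AKR1B1 (WDR77, r = 0.909) and SLC6A6 (CSNK1E, r = 0.889) had less similar genes. Among the 7 themselves, SLC12A2 and ATP1B3 had r = 0.768, ATP1B1 and ATP1B3 r = 0.753, and SLC12A2 and LRRC8A r = -0.772.

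Processed copies of the pump genes held few reads. ATP1B1P1 had 83 counts over the 32 libraries, against 164646 of ATP1B1, and ATP1B3P1 had 17, against 99187 of ATP1B3.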
